A study of Mus musculus with 8 samples.

Results

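The smooth muscle microRNAs miR-143 and miR-145a, listed in the files as mmu-mir-143 and mmu-mir-145a, were followed across small RNA libraries of mature mouse sperm. They are 2 of the 761 miRNA names with at least 1 read. A sequence counted as a member when its annotation named only that miRNA, with the suffix of gene copies ignored. By this rule miR-143 had 47 distinct sequences and miR-145a had 71, and each of them matched the genome. Both miRNAs were chosen from their levels in these libraries, activated against control and with or without control replicate 4. Those levels are therefore given as a description, with no test.

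Sperm came from the caudae epididymides of 8 mice, 1 library per mouse. The 4 activated mice were Agrp Cre/+ and the 4 control mice Agrp +/+. All 8 mice had received the vector AAV-hM3Dq-mCherry in the arcuate nucleus of both sides at an age of 8 weeks, 3 weeks before the experiment. The vector carries an excitatory designer receptor for the drug CNO (clozapine-N-oxide), which is made only in cells with Cre, here the AgRP neurons that drive feeding. Both groups went without food for 1 h and then received CNO (1 mg/kg), and their sperm was collected 4 h later. Control mice therefore share virus, drug and food removal, and lack Cre. Libraries held 14903635, 17489698, 14757501 and 9409491 reads in activated mice and 12421068, 23123740, 9297271 and 14348060 in control mice.

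MicroRNAs are short RNAs cut from a hairpin, whose 5p and 3p arms can each give a mature strand. Bases 2 to 8 of a strand, the seed, pair with target messenger RNAs, so a strand that starts at another base has another seed. miR-143 and miR-145a are made from neighbouring genes and are best known from smooth muscle, where they favour the contractile state. In the GENCODE M21 annotation of GRCm38, Mir143 and Mir145a lie on the same strand with 1301 bases between them, and their hairpin models span 63 and 70 nt. Their seeds differ.

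Mature sequences are shown for the miRNAs whose levels followed the members most closely over the 8 libraries, since these are the companions described further on. They were taken from RefSeq (GRCm38.p6), in which 9 of the 10 companions were matched, and capitals mark the seed. The first set are companions of miR-143, each with a seed of its own.
mmu-miR-126a-3p, chr2:26591402-26591423, plus strand: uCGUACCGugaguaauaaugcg
mmu-miR-28a-5p, chr16:24827868-24827889, plus strand: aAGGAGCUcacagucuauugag
mmu-miR-152-3p, chr11:96850439-96850459, plus strand: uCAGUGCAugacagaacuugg
mmu-miR-182-5p, chr6:30165962-30165986, minus strand: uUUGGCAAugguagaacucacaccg

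The second set are companions of miR-145a. The first pair share a seed, and the others have seeds of their own.
mmu-miR-100-5p, chr9:41531437-41531458, plus strand: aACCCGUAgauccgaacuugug
mmu-miR-99a-5p, chr16:77598940-77598961, plus strand: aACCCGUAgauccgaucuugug
mmu-miR-125b-5p, chr9:41581940-41581961, plus strand: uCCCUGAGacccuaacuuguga
mmu-miR-127-3p, chr12:109592888-109592909, plus strand: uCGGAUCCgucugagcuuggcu
mmu-miR-434-3p, chr12:109594565-109594586, plus strand: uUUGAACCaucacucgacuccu

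One control library stood apart. In control replicate 4 both members reached levels far above those of the other 7 libraries, so each result that rests on it is given with and without it. Levels are in RPM, the reads of a miRNA per 1000000 reads of its library. In activated sperm miR-143 stood at 332, 141, 83.7 and 220.1 RPM. In control sperm it stood at 129.8, 294, 117 and 17171 RPM. The first 3 control libraries lay within the range of the activated ones, and control replicate 4 was 121 times the median of the other 7 libraries.

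miR-145a stood at 53.3, 56.2, 52.8 and 68.9 RPM in activated sperm. In control sperm it stood at 68.5, 65.4, 123 and 17715 RPM. Control replicate 4 was 271 times the median of the other 7, among which control replicate 3 was the highest. Read counts behind these levels ranged from 1091 to 6808 for miR-143 and from 648 to 1512 for miR-145a outside control replicate 4, where they were 246373 and 254176. Among all miRNAs miR-145a ranked 6 and miR-143 ranked 7 in that library, against ranks of 88 to 150 and 78 to 108 elsewhere. Together the members took 3.49% of all reads there, and between 0.0136% and 0.0385% in the others.

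**Figure D1:**
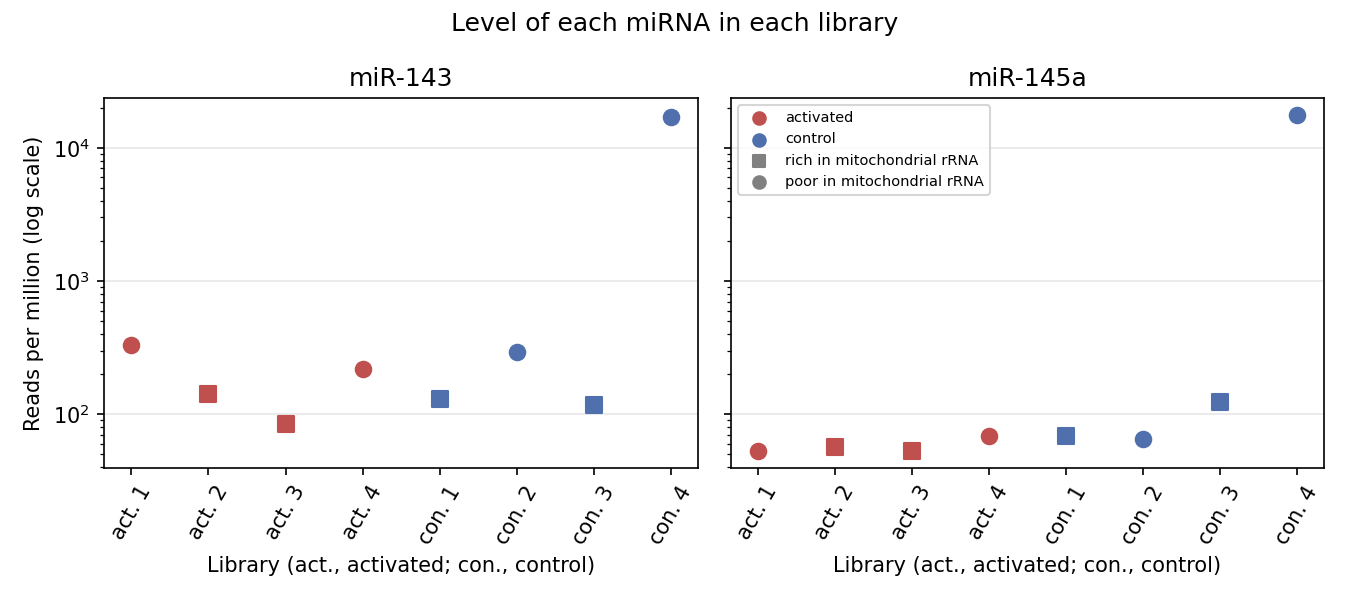
Level (RPM) of miR-143 and miR-145a in each library, on a log axis, coloured by group and shaped by mitochondrial rRNA content. Control replicate 4 lies at 17171 and 17715 RPM, while no other library passes 332 and 123 RPM.

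Activated mice averaged 194 ± 108 RPM of miR-143 (SD, n = 4) and control mice 4428 ± 8496 RPM (SD, n = 4), a ratio of 0.0439. Without control replicate 4 the control mean was 180.5 ± 98.8 RPM (SD, n = 3) and the ratio 1.08. The log2 fold change fitted by edgeR over all RNA species was -4.70 (standard error 1.72), and 0.09 (standard error 0.43) without that library. The difference between the group means of miR-143 thus lay in 1 library, and the other 7 overlapped.

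For miR-145a activated mice averaged 57.8 ± 7.54 RPM (SD, n = 4) and control mice 4493 ± 8815 RPM (SD, n = 4), a ratio of 0.0129. Without control replicate 4 the control mean was 85.6 ± 32.4 RPM (SD, n = 3) and the ratio 0.675. The fitted log2 fold change was -6.39 (standard error 2.05), and -0.54 (standard error 0.30) without that library. The groups still overlapped, since activated replicate 4 at 68.9 RPM was above control replicates 1 and 2. Sperm was sequenced in bulk, in which fewer cells of a type and less RNA per cell cannot be told apart.

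Across all RNA species with at least 50 counts in at least 4 libraries, edgeR called 0 of 587 (0%), where a call needed an adjusted p below 0.05 together with a log2 fold change past 1 in size. Before adjustment 4 species were higher and 29 lower in activated sperm at p below 0.05 and past that fold change, or 10 and 38 with no fold minimum. DESeq2 called 3 (0.511%), all lower. DESeq2 gave no p for either member, because its check for counts that depend on a single sample (the Cook cutoff) set them aside.

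The members did not keep a fixed proportion. Reads of miR-143 per read of miR-145a were 6.23, 2.52, 1.59 and 3.20 in activated sperm and 1.89, 4.50, 0.955 and 0.969 in control sperm. Control replicate 4, with the highest levels of both, thus had almost the same proportion as control replicate 3, where miR-145a was the highest of the other 7 libraries. Over 8 libraries the log2 RPM of the members gave a Pearson r of 0.944 and a Spearman rho of 0.286, both scaled by the same library totals. Without the 2 libraries farthest from the median of miR-143, activated replicate 1 and control replicate 4, r was -0.0140, and without control replicate 4 alone it was -0.212. The correlation therefore rests on that library.

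Libraries also fell into sets of 4 by mitochondrial rRNA, with 0.123% to 0.182% of reads in the poor set and 1.09% to 1.89% in the rich set. These sets are not the study's groups, and each holds 2 activated and 2 control mice. Levels of miR-143 averaged 118 ± 24.9 RPM (SD, n = 4) in the rich set and 282 ± 57.0 RPM (SD, n = 3) in the poor set without control replicate 4, with no overlap. As a share of miRNA reads, miR-143 overlapped between the sets, at 0.0365% to 0.0658% and 0.0588% to 0.0887%. For miR-145a the sets overlapped on the RPM scale, at 75.1 ± 32.6 RPM (SD, n = 4) and 62.5 ± 8.18 RPM (SD, n = 3). Reads of miR-143 per read of miR-145a averaged 1.74 in the rich set, where the highest was 2.52. In the poor set without control replicate 4 they averaged 4.64, with 3.20 the lowest, and 3.73 with that library. Within the rich set, which does not hold control replicate 4, the ratio of activated to control was 0.911 for miR-143 and 0.569 for miR-145a. Within the poor set it was 0.0316 and 0.00687, and 0.938 and 0.934 without control replicate 4, which leaves 1 control mouse.

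Reads of miR-143 were longer in control replicate 4 than in each other library. There 58.8% of miR-143 reads were 21 nt long and 25.5% were 20 nt, while in the other 7 libraries 20 nt reads were the most frequent, at 57.7% to 65.9%. Reads of 22 nt made up 13.5% in control replicate 4 and 1.45% to 5.41% elsewhere. The mean length of miR-143 was 20.8 nt there and 20.30 to 20.37 nt in the others.

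For miR-145a the most frequent length in control replicate 4 was 23 nt, with 45.1% of reads, inside the range of 21.1% to 45.2% in the others. Its mean length of 22.2 nt was likewise inside the range of the others, 21.3 to 22.2 nt, of which control replicate 3 was the highest. At some other lengths the share of miR-145a lay outside the others' range, for 22 nt only just. Reads of 19 nt made up 1.19% there against 2.10% to 9.70% elsewhere, those of 20 nt 3.53% against 4.11% to 18.4%, and those of 22 nt 26.74% against at most 26.56%.

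Over the 273 miRNA species that passed the count minimum, the median shift of mean length in control replicate 4 was -0.0037 nt, with 42 (15.4%) above and 39 below each of the other 7 libraries. The upward shift of miR-143, 0.520 nt, was matched or passed by 7 of the 273 with itself included. That of miR-145a, 0.630 nt, was matched or passed by 4. A further 9 species shifted down by more than either, by up to 2.39 nt.

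**Figure D2:**
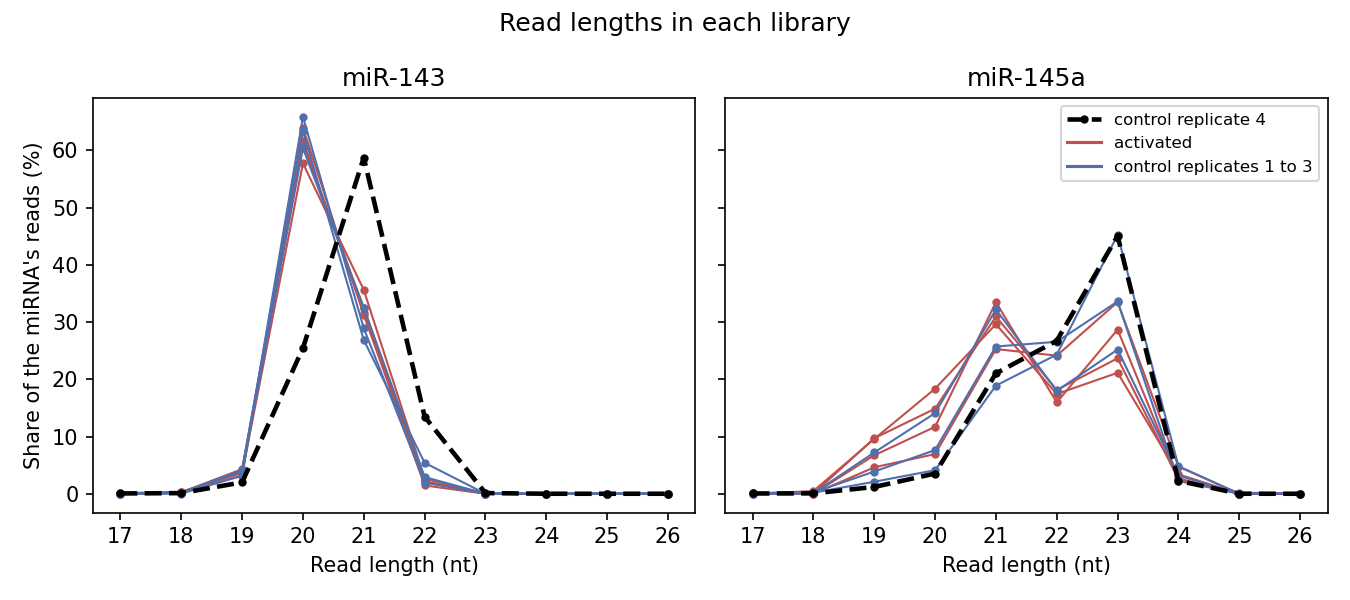
Share of the reads of miR-143 and miR-145a at each length from 17 to 26 nt, 1 line per library, with control replicate 4 dashed in black. For miR-143 the peak is at 21 nt in control replicate 4 and at 20 nt in each other library.

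The ratio of the groups differed with length. At 20 nt activated mice had 118 ± 61.6 RPM of miR-143 (SD, n = 4) and control mice 1179.6 ± 2128.8 RPM (SD, n = 4), so that the ratio was 0.0997, or 1.02 without control replicate 4. At 21 nt the ratio was 0.0253, or 1.23 without it, and at 22 nt 0.00715, or 0.789 without it. For miR-145a the ratio was 0.0182 at 21 nt, 0.00904 at 22 nt and 0.00755 at 23 nt. Without control replicate 4 these were 0.837, 0.544 and 0.481. Among those 7 libraries control replicate 3 was the highest at 23 nt, with 55.6 RPM of the most abundant fragment against 12.5 to 23.0 RPM in the other 6.

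Strands and their starts were not used in choosing the members and could be tested. miR-143 came almost wholly from the 3p arm. Its 5p arm gave 68 reads in control replicate 4, or 0.0276% of the reads of both arms (95% Wilson interval 0.0218% to 0.0350%), and 0 reads in the other 7 libraries. Taken as at most 3 counts, 0 reads allow up to 0.0441% in the library with most miR-143 reads and 0.275% in that with fewest. In a single one of these libraries a 5p share like that of control replicate 4 was thus not detectable. Over the 7 together, 0 of 20239 reads allow up to 0.0148%, which is below the interval of control replicate 4. Intervals and floors cover counting error only, since amplified reads are not independent molecules, and they leave out the spread between mice. The pooled limit therefore shows no difference between mice.

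miR-145a came mostly from the 5p arm. Its 3p arm took 11.3%, 6.82%, 4.36% and 8.18% of the reads of both arms in activated sperm and 6.70%, 9.99%, 2.62% and 3.79% in control sperm. The groups overlapped, at 7.67% ± 2.91 and 5.78% ± 3.29 (SD, n = 4 each; two-sided exact permutation test, p = 0.400, adjusted p = 0.857). Single libraries moved the difference of 1.90 percentage points, to 0.677 without activated replicate 1, 0.848 without control replicate 3 and 3.30 without control replicate 2 (exact permutation tests, p = 0.743, 0.686 and 0.114), and it stayed positive in each. Control replicate 4 thus lay inside the range of the other libraries in the use of its arms. By mitochondrial rRNA the share was 2.62% to 6.82% in the rich set. In the poor set it was 8.18% to 11.3% without control replicate 4, which lay at 3.79%.

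Starts of the main strands were nearly fixed. miR-143-3p started at the same base in 99.19% to 99.94% of reads, with 99.53% ± 0.180 in activated and 99.55% ± 0.316 in control sperm (SD, n = 4 each; exact permutation test, two-sided, p = 0.914, adjusted p = 1). The lowest share was that of control replicate 4, below the 99.32% to 99.94% of the other 7. The difference of -0.0231 percentage points changed sign with single libraries, at -0.143 without control replicate 4 and 0.106 without control replicate 1 (exact permutation tests, p = 0.457 and 0.514). miR-145a-5p did so in 98.4% to 100% of reads, with 99.15% ± 0.671 and 99.49% ± 0.141 (SD, n = 4 each; exact permutation test, p = 0.429, adjusted p = 0.857). Single libraries moved the difference in miR-145a-5p, -0.346 percentage points, both ways. Without activated replicate 1, at 100%, it was -0.631 points and the groups did not overlap (exact permutation test, p = 0.0571, the smallest that 3 against 4 libraries allow). Without activated replicate 2, at 98.4%, it was -0.0854 points (exact permutation test, p = 0.857), and with reads of 20 to 24 nt only it was -0.103 points (exact permutation test, p = 0.886). Adjusted values are over the 4 share tests. The fourth, on the 5p share of miR-143, could give only p = 1 (exact permutation test), because 7 libraries had 0 reads. The seed of each main strand was therefore the same in nearly all reads of each library.

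Reads of the rarer miR-145a-3p began mostly at 1 of 3 neighbouring bases. In control replicate 4, with 9642 reads, 53.1% began at the base that led over all libraries together, 19.9% 1 nt before it and 26.8% 2 nt before it. In the other libraries, with 30 to 151 reads, that leading base took 29.4% to 74.4%. The start 2 nt before it was the more frequent one in activated replicate 3, with 44.1% of 34 reads, and in control replicate 3, with 50% of 30 reads. Each start brings another seed.

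**Figure D3:**
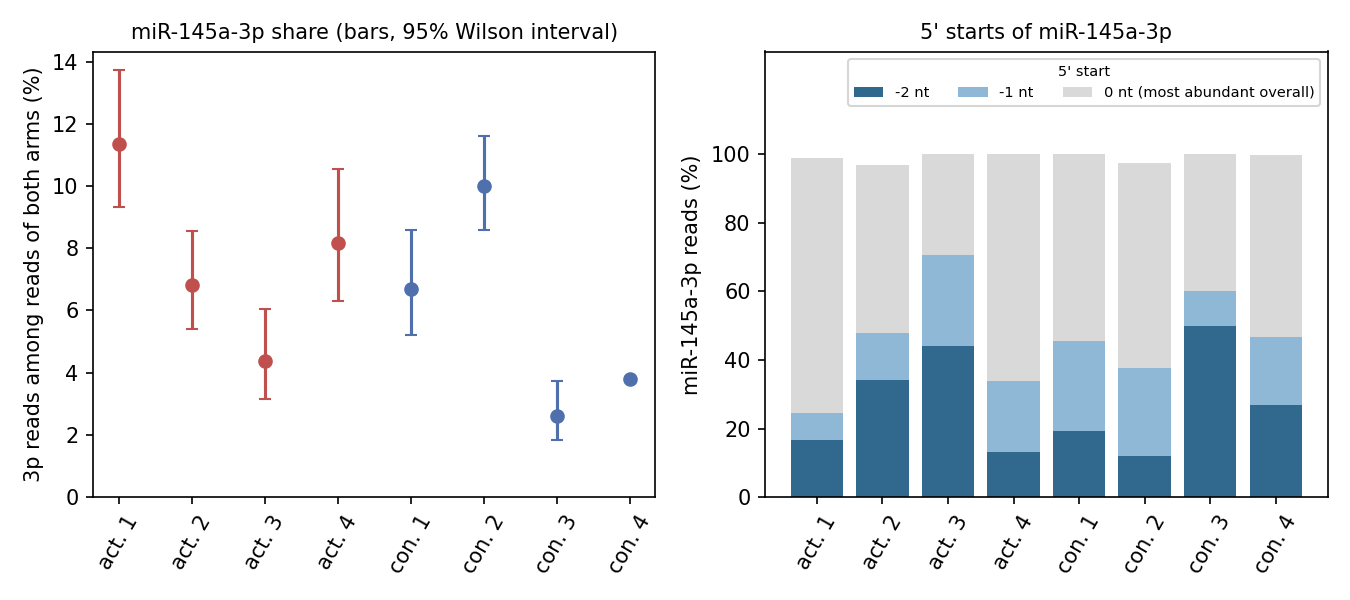
Left, share of miR-145a reads from the 3p arm in each library, with 95% Wilson intervals. Right, share of miR-145a-3p reads at the 3 main starts, counted in nt from the one that led over all libraries together. Control replicate 4 lies at 3.79% on the left, and its starts divide as 53.1%, 19.9% and 26.8%.

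By reads summed over all libraries, the most abundant miR-143-3p fragments were 21, 20 and 22 nt long, all with the same start. Control replicate 4 gave most of these reads, 143845 of 150191 for the 21 nt fragment. The 21 nt fragment stood at 10025 RPM in control replicate 4, 220.3 times the median of the other 7, the 20 nt fragment at 4352 RPM, 50.4 times, and the 22 nt fragment at 2274 RPM, 601 times. Those of miR-145a-5p were 23, 22 and 21 nt long, at 7958, 4500.1 and 3449 RPM there, or 483, 428 and 207 times the median. In both main strands the longest of the 3 had the highest multiple. The 3 were picked mostly by reads of the library in which they are compared, so no trend with length is drawn from this. The leading miR-145a-3p fragments had 21, 22 and 20 nt and stood at 213, 137 and 136 RPM there. They were at 106, 184 and 264 times the median, so here the shortest had the highest. Of these, the 22 nt fragment began 2 nt before the others, and the 20 nt fragment had 2 to 28 reads in each other library. Their order by length is therefore uncertain. Of miR-143-5p the leading fragments of 22, 23 and 35 nt had 18, 17 and 11 reads, in control replicate 4 alone.

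Of the distinct sequences, 32 of 47 for miR-143 and 36 of 71 for miR-145a were seen only in control replicate 4. Only 4 and 5 sequences passed the count minimum as fragments. Reads of 28 nt or more numbered 20 for miR-143 and 12 for miR-145a in control replicate 4 and 0 in the others. That library held 246373 of the 266612 reads of miR-143 and 254176 of the 260886 reads of miR-145a. At such unequal depth, rare sequences and long reads cannot be compared between libraries.

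Other miRNAs stood high in the same library. Of the 273 species, 29 (10.6%) were at 10 times the median of the other 7 libraries or more, and 103 (37.7%) were above each of them. In no other library did more than 1 species reach 10 times the median of the rest. Among these 273, miR-145a ranked 1 and miR-143 ranked 3 by this multiple. Between miR-145a and miR-143 lay miR-196b, named after its value was seen. It had 566 RPM in control replicate 4 and a median of 4.20 RPM elsewhere, or 135 times. Of the striated muscle markers below the count minimum, miR-1a stood at 208 times and miR-133a at 140 times, from medians of 1.37 and 0.850 RPM.

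**Figure D4:**
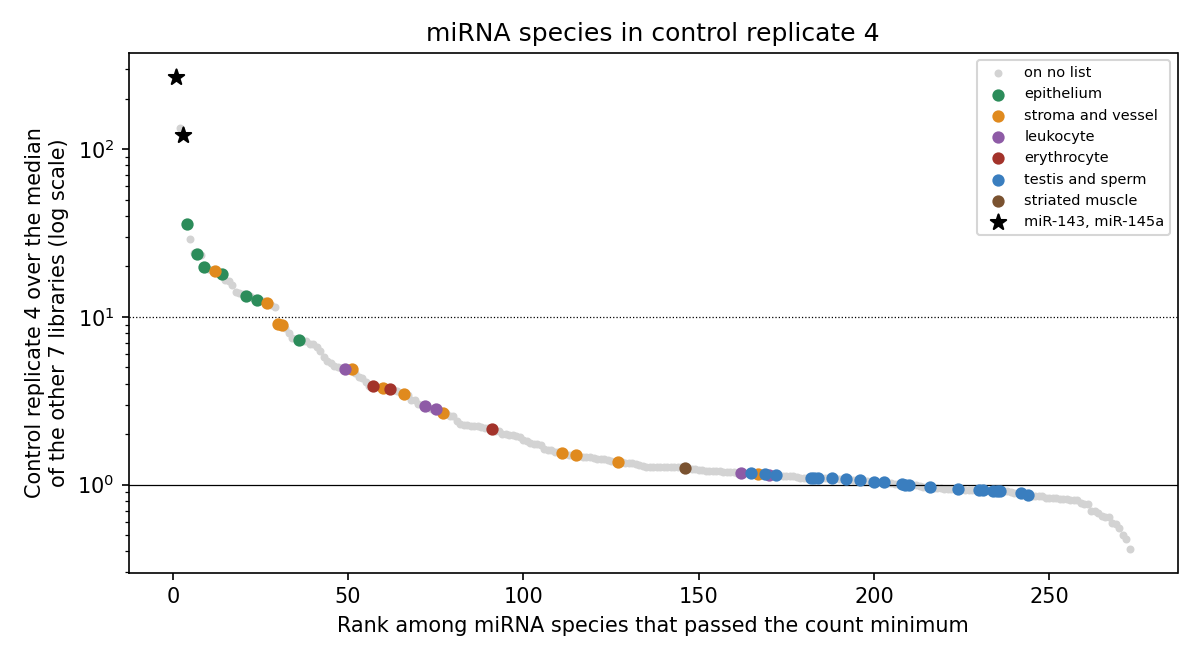
Level in control replicate 4 over the median of the other 7 libraries, on a log axis, for 273 miRNA species in order of this multiple, with marker lists in colour. The stars of miR-145a and miR-143 lie at 271 and 121, and several epithelial markers lie above the dotted line at 10.

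The miRNAs with levels most like miR-143 over 8 libraries were miR-126a, known from vessel endothelium (r = 0.993), sequences shared by miR-199a and miR-199b (r = 0.973), miR-28a (r = 0.971), miR-152 (r = 0.970) and miR-182 (r = 0.968). miR-126a stood at 1182 RPM in control replicate 4 and at a median of 62.9 RPM elsewhere, 18.8 times. miR-28a stood at 2.17 times, with 240 RPM against 85.2 to 118 RPM elsewhere. A high r thus did not need a high multiple, but control replicate 4 was the highest library for miR-28a too. Without control replicate 4 the 5 most alike were miR-26a (r = 0.997), miR-450a, miR-148a, miR-3084 and miR-182, and only miR-182 was in both sets.

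Most like miR-145a were miR-100 (r = 0.992), miR-125b (r = 0.982), miR-127 (r = 0.981), miR-99a (r = 0.981) and miR-434 (r = 0.978). Their levels in control replicate 4 were 12.6, 13.3, 16.5, 16.7 and 6.93 times the median of the other 7. Spearman's rho for the 5 was 0.429 to 0.857. Without control replicate 4 they were miR-127 (r = 0.936), miR-345, miR-199a, miR-204 and miR-125b. These are descriptions over 8 or 7 libraries that share their totals as denominator.

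Markers of cell types that a sperm sample could hold were compared as lists. The smooth muscle list held the members and 2 others. miR-490 had 73 reads in control replicate 4, 4 in control replicate 3 and 0 in the other 6. miR-145b had 1 read of its own, in control replicate 4, and 11 further reads there fitted miR-145a and miR-145b alike. Neither passed the count minimum.

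Epithelial miRNAs, led by miR-200c, summed to 19420.2 RPM in control replicate 4 and to 1085 to 3476 RPM in the others, with a median of 1364 RPM. All 7 species of the list were higher there than in each other library, against 103 of all 273 miRNA species (37.7%). Their median log2 fold change, activated against control, was -2.16, and -0.14 without that library. Over all 587 RNA species the medians were -0.07 and 0.05, and over the 273 miRNA species 0.15 and 0.37.

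Markers of stroma and vessel, led by miR-195a, summed to 7384 RPM in control replicate 4 and to 1344 to 4467 RPM elsewhere. Of the 12 species that passed the minimum, 8 were above each other library there, against 103 of all 273 miRNA species (37.7%). miR-195a itself was not, with 1677 RPM against up to 1798 RPM. The median log2 fold change of the list was -0.25, and 0.39 without that library, where the median of all miRNA species was 0.37.

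Striated muscle markers, led by miR-1a only through control replicate 4, summed to 456 RPM there and to 15.1 to 70.8 RPM elsewhere. In each other library miR-499 was the most abundant of the list, at 9.57 to 54.1 RPM. In control replicate 4 miR-1a stood at 285 RPM against at most 5.43 RPM elsewhere, and miR-133a at 119 RPM against at most 2.90 RPM. miR-206 was at 0 reads there and miR-133b at 0 reads of its own in each library. miR-208a stood at 0.279 RPM there, below the 0.403 to 3.02 RPM of the others. miR-208b, at 2.02 RPM, lay inside their 0.860 to 5.70 RPM. The higher sum was thus not shared by each marker of the list. Only miR-499 passed the count minimum, and its level in control replicate 4 lay inside the range of the others.

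Leukocyte markers, led by miR-342, summed to 1999 RPM in control replicate 4, within the 1136 to 3363 RPM of the others. Of the 5 species that passed the minimum, 1 was above each other library there, against 103 of all 273 (37.7%). It was miR-146a, at 326 RPM against at most 117 RPM. Erythrocyte markers, led by miR-451a, summed to 659 RPM, within 83.5 to 976 RPM. DESeq2 called 2 of the 3 erythrocyte species lower in activated sperm, against 3 of all 587 RNA species (0.511%). The 2 were miR-451a and the sequences shared by miR-486a and miR-486b. EdgeR called 0 of the 3 and had 2 at an unadjusted p under 0.05, against 48 of all 587 RNA species. With edgeR and all 8 libraries, 4 of 7 epithelial and 1 of 12 stroma and vessel species also had such a p. The median log2 fold change of the epithelial list was -2.16, and -0.14 without control replicate 4. That of the erythrocyte list was -1.95, and -2.03 without it. Markers of testis and sperm, led by miR-34b, summed to 48437 RPM, within 29777 to 66146 RPM. Of their 23 species, 0 were higher in control replicate 4 than in each other library, against 103 of all 273 miRNA species (37.7%). Sperm-typical miRNAs thus did not stand apart in the library where the members did. The part that other cell types have in the members' level was not tested.

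**Figure D5:**
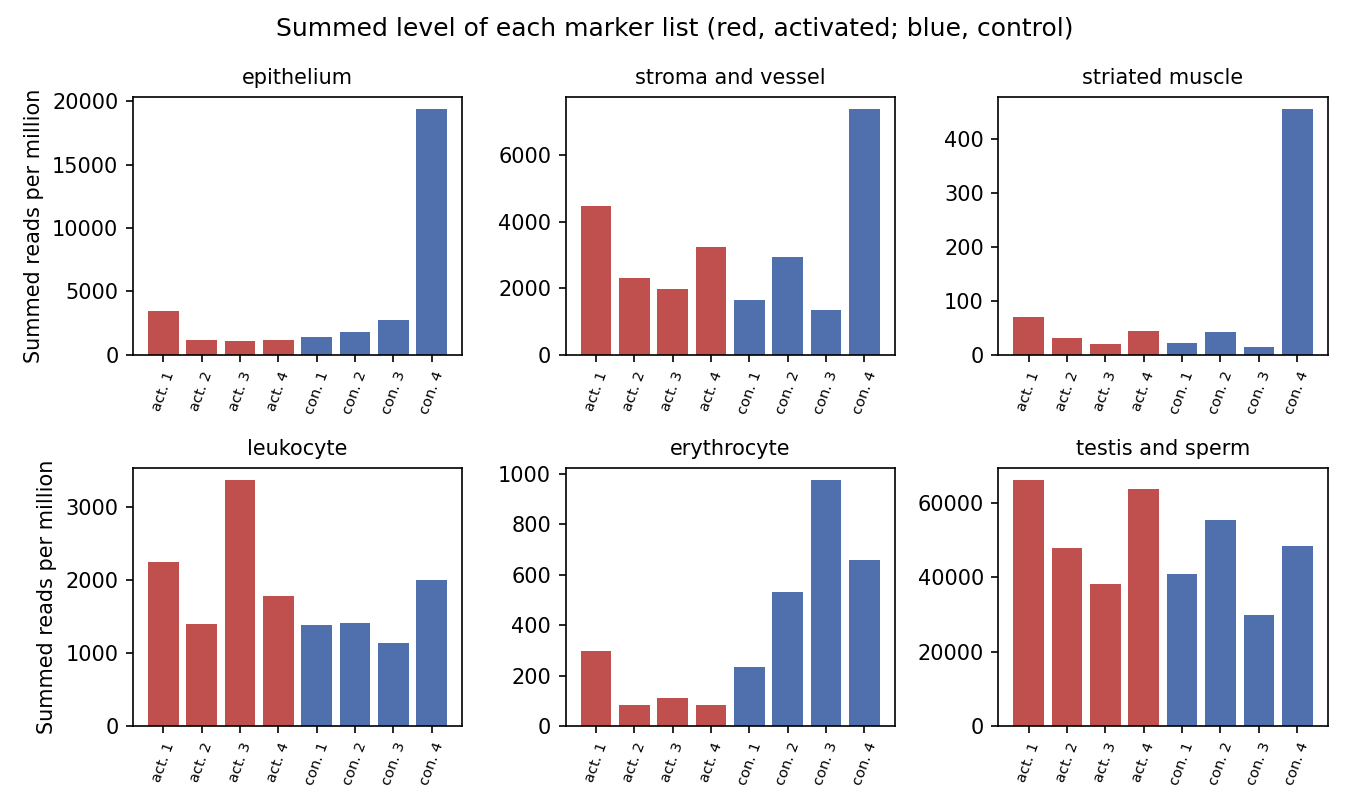
Summed level (RPM) of 6 marker lists in each library, the smooth muscle list left out, activated in red and control in blue, on linear axes from 0. Control replicate 4 is the highest bar for epithelium (19420.2 RPM), stroma and vessel (7384 RPM) and striated muscle (456 RPM), and lies within the others for leukocytes, erythrocytes, and testis and sperm.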

How the data were processed

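The authors prepared 1 small RNA library per mouse and processed the reads with SPORTS1.1, keeping 15 to 45 nt, leaving duplicates in and allowing no mismatch to mm10 and to RNA databases, miRBase 21 among them. The deposited tables hold counts: for each distinct sequence its raw reads and annotation. Summary tables of the same reads were not used. A read with an added or changed base at its end matches no hairpin and is not counted for a member.

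Counts were summed per miRNA and length and divided by library totals. RNA species and fragments that reached 50 counts in 4 or more libraries went into edgeR 4.0.16 (TMM, quasi-likelihood, Benjamini-Hochberg adjustment, R 4.3.3). DESeq2 1.42.0 with apeglm 1.24.0 was the alternative. Both were also run on simulated counts with known changes, a common dispersion and no outlying library. Those runs do not show how either behaves with a library like control replicate 4. For shares, an exact permutation test (two-sided, 70 assignments, smallest p 0.0286) was used. Python 3.11.15 ran with scipy 1.17.1, pandas 2.3.3, numpy 2.4.6 and matplotlib 3.10.9. Arms were assigned by an overlap of at least 10 nt with the most abundant fragment of each arm on the GENCODE hairpin. For 0 reads the upper limit was set at 3 counts.

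Named miRNAs are the members, the most abundant of each marker list, the 5 with the highest Pearson r of log2 RPM to each member, and the 3 most abundant fragments of each arm. Further list members are given by value. The members and lists were chosen with earlier results of these data known. Alternatives were other denominators and scalings, count minimums, lengths of 20 to 24 nt, a replicate block, sets by mitochondrial rRNA and leaving out each library. Likeness and lists without control replicate 4, and DESeq2 without its Cook cutoff, were chosen after seeing the data.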

Additional observations from a re-analysis of the deposited data

Results flagged for a closer look

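In control sperm, control replicate 4 lay far from the other 3 libraries of its group for miR-143 (17171 RPM) and miR-145a (17715 RPM), the levels from which both were chosen. Its 5p share of miR-143 (0.0276%) stands against 0 reads in the other 3, whose limits of 3 counts lie above it, so no distance can be read from it. Control replicate 4 also lay far from the rest for the summed smooth muscle markers other than the members (5.16 RPM), the striated muscle markers (456 RPM) and the epithelial markers (19420.2 RPM). In activated sperm, activated replicate 1 lay far from the others for the epithelial markers (3476 RPM) and the erythrocyte markers (297.98 RPM). Such a gap was looked for in 28 groups of values and found in 8, the members' levels and the 5p share among them. Chance gives such a gap in about 1 in 20 groups. That rate does not apply to the members' levels, which chose them, nor to the 5p share, and the marker lists share libraries. Activated replicate 1 also had the highest miR-143 of the 4 activated libraries, at 332 RPM, and did not stand out in miR-145a, at 53.3 RPM.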

How the results depend on the processing

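The ratio of activated to control ranged from 0.0331 to 1.08 for miR-143 and from 0.00968 to 0.675 for miR-145a when each library was left out, with the highest value without control replicate 4. With geometric means the ratios were 0.326 and 0.183, and in the libraries rich in mitochondrial rRNA 0.911 and 0.569. With miRNA reads as denominator they were 0.0602 and 0.0193. Genome-matching reads as denominator, TMM scaling, lengths of 20 to 24 nt and added shared sequences gave 0.0384 to 0.0467 and 0.0119 to 0.0140. These denominators, scalings, lengths and added sequences all keep control replicate 4, which sets the spread between control mice, so they say nothing of stability. The correlation of the members fell from 0.944 to -0.0140 without the 2 farthest libraries and to -0.212 without control replicate 4. The number of miR-143 reads per miR-145a read, activated over control, was 1.63. It went from 1.17 without activated replicate 1 to 2.66 without control replicate 2, so its size depends on single libraries.

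RNA species called numbered 0 with edgeR, 3 with DESeq2 and 3 without its Cook cutoff. Unadjusted counts here need a p of edgeR under 0.05 and a log2 fold change past 1. They were 4 species higher and 29 lower in activated sperm (10 and 38 with no fold minimum), and 6 and 19 without control replicate 4. Of 12077 fragments edgeR called 61, all higher in activated sperm, and DESeq2 240, of which 195 were higher and 45 lower. EdgeR called 0 with library size only (unadjusted, 382 up and 278 down), 2800 of 387985 with a minimum of 1 count (1743 higher and 1057 lower) and 202 of 56991 with a minimum of 10, all higher. Leaving out each library gave 0 to 84 fragments with edgeR, with the fragments of the main fit kept and the count minimum not reapplied. There were 84 without activated replicate 2 and 0 in the other 7 fits, with 522 to 961 unadjusted. The cause was not tested. With the replicate number as a block edgeR called 0 species and 0 fragments (unadjusted, 6 and 7 species and 259 and 197 fragments, up and down). Deviations of same-numbered mice had no common sign (r = -0.51, 0.04, 0.53 and -0.11). The labels do not say whether the numbers pair mice, and these values cannot settle it.

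No share test passed a p of 0.05. Without 1 library the smallest p is 0.0571, so none could pass, and the miR-145a start share reached it without activated replicate 1. The test of the 5p share of miR-143 could not pass with 8 libraries either. Depth limits the lesser arms, with 0 miR-143-5p reads in 7 libraries and 30 to 151 miR-145a-3p reads.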
